A study of Danio rerio with 6 samples.

Results

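Macrophage and monocyte genes were followed in whole kidney marrow, the main blood-forming tissue of adult zebrafish, of il7 mutant and control fish. The set was a list of 33 gene symbols for macrophage identity, phagocytosis and the lysosome. Of these, 29 symbols were found, and they corresponded to 36 of the 32267 features of the expression table. The excess of features came from shared names, since 6 features carried the symbol MFAP4 and 3 carried MPEG1. The name MPEG1 is an older name of mpeg1.1 and does not tell that gene from its close relatives, so its features are given by identifier. No feature was matched by name to mpeg1.2, cx3cr1, msr1 or axl. Whether an MPEG1 feature is mpeg1.2 could not be told, and cx3cr1, msr1 and axl were not analysed here.

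The il7 mutant group held 3 libraries from fish with an internal deletion that removes exons 2 to 4 of il7, the gene of the cytokine interleukin 7, and the control group held 3 libraries from wild-type fish. Both groups had the TLEK background and both used unfractionated marrow, so every value is an average over all cells present. The labels state neither the age of the fish nor whether the libraries came from separate fish, so a p-value here reflects the spread among 6 libraries, and that spread may be technical. The study asked what il7 does in the development of lymphocytes. The genes followed here were listed for macrophage roles, and these data do not tell which cells their reads came from.

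Macrophages are phagocytes that arise from myeloid progenitors. The transcription factor PU.1, encoded by the spi1 genes, and the factor irf8 set up the lineage, and signalling through the Csf1 receptor maintains it. Mature macrophages take up particles and dying cells through scavenger and phosphatidylserine receptors, secrete the recognition subunit of the classical complement pathway, and degrade their cargo in lysosomes with cathepsins and lipases. Zebrafish carry duplicates of several of these genes, and the members of a pair can be used by different cells.

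Reads assigned to genes numbered 34496353 to 46120889 per library. The deleted gene il7 had normalized counts of 16.5, 17.8 and 4.00 in il7 mutant libraries and 89.8, 61.6 and 57.7 in control libraries, so that the groups did not overlap (two-sided exact permutation p = 0.1, the lowest value possible with 3 libraries a group). The libraries il7 mutant 2 and control 1 were rich in oocyte transcripts. The egg coat gene zp3b stood at 31205 normalized counts in il7 mutant 2 and 55927 in control 1, against 52.1 to 68.7 in the other 4 libraries. Where a change moved most when that pair was left out, it is given with and without the pair.

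Defining macrophage transcripts were present in every library. Besides the 5 features listed at 0 in all 6 libraries, which were 4 of the 6 MFAP4 features and the galectin gene lgals9l1, 1 MPEG1 feature (ENSDARG00000078569) had at most 1 read in a library. A count of 0 still allows an expected number of up to 3 reads in a library. The other 30 features passed the filter of a mean normalized count of at least 10 and were fitted. In order of mean normalized count over the 6 libraries they ran from ctsd (27048), ctsba (17434), MPEG1 ENSDARG00000043093 (13025), csf1rb (11303) and ctsz (9954) down to ccl34a.4 (25.4), timd4 (20.4) and MFAP4 ENSDARG00000090557 (14.1). These are reads per gene, which also grow with the length of a transcript, so this order is not an order of expression per molecule. In this count ctsd lay above 99.1% of all fitted genes and timd4 above 8.02%.

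**Figure D1:**
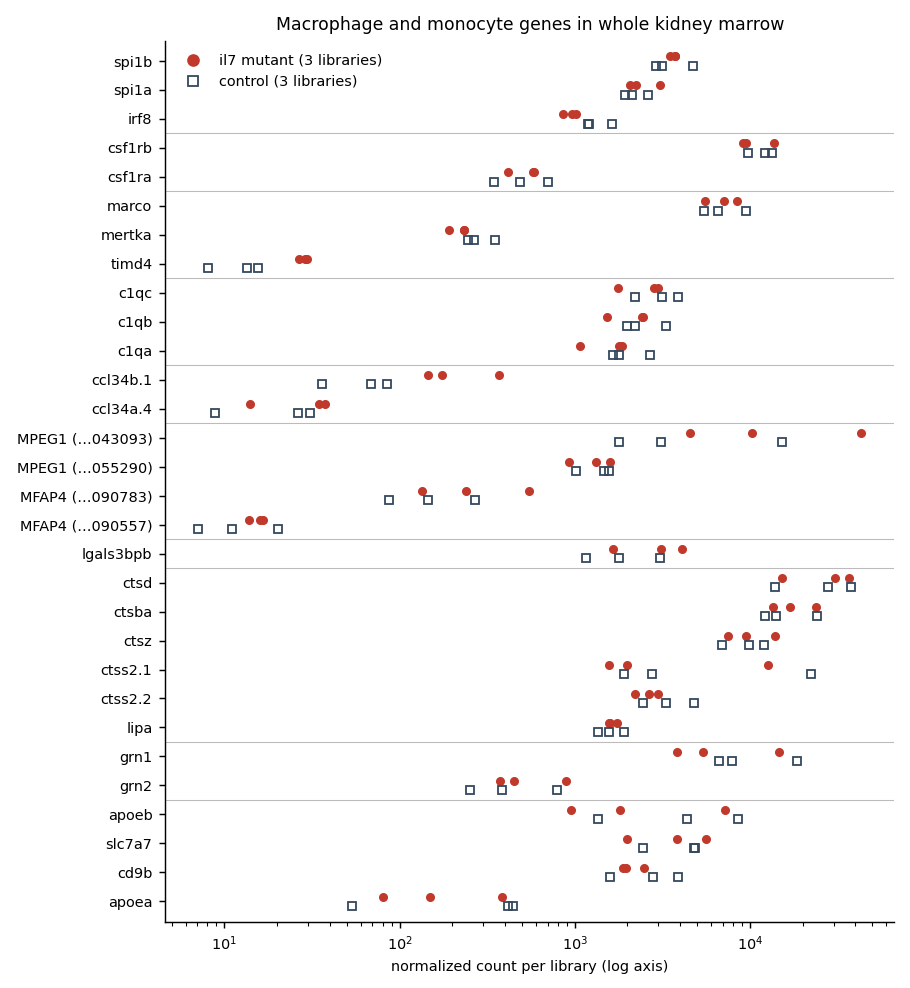
Normalized count (log axis) of the 30 fitted macrophage and monocyte features, 1 row each, grouped by role; filled circles are the 3 il7 mutant libraries and open squares the 3 control libraries. The groups overlap in 26 of 30 rows, and the exceptions are irf8 and mertka, lower in the mutants, and timd4 and ccl34b.1, higher in the mutants.

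None of the 30 features passed the limma test at an adjusted p under 0.05, which was computed on log2(normalized count + 1) with Benjamini-Hochberg adjustment over all 20782 fitted genes. The same test called 0% of all genes, and the smallest adjusted p was 0.288 over all genes and 1.00 over these features. The deleted gene il7 did not pass the test either, with a log2 change of −2.55 and an unadjusted limma p of 0.00703. At an unadjusted p under 0.05, 1 of the 30 features was higher (background 1.36% of all genes) and 0 were lower (background 2.12%). Of the features, 15 had a positive and 15 a negative log2 change, with a median of 0.00 against −0.04 over all fitted genes. Groups did not overlap for 2 features that were higher in the mutants (6.67% of 30, against 3.51% of all genes) and for 2 that were lower (6.67%, against 4.44%). In the authors' deposited table, which tested reads with a count model, 0 of 29 features passed at an adjusted p under 0.05, against 0.521% of all genes tested there. The authors' table calls il7, at an adjusted p of 0.0403. Every fitted feature had the same sign there as in the limma fit.

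Precision differed widely between the genes. The standard error (SE) of the log2 change ran from 0.21 for lipa to 1.16 for ctss2.1, with a median of 0.35 against 0.43 over all fitted genes. For 10 of 30 features (33.3%, against 31.1% of all fitted genes) the 95% interval of the change lay wholly within 2-fold in either direction. These were spi1a, spi1b, csf1ra, csf1rb, marco, c1qb, MPEG1 ENSDARG00000055290, ctsba, ctsz and lipa. For the other 20 features, ccl34b.1 among them, the interval reached beyond 2-fold in at least 1 direction. In bulk marrow, fewer cells of a type and less RNA per cell cannot be told apart.

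**Figure D2:**
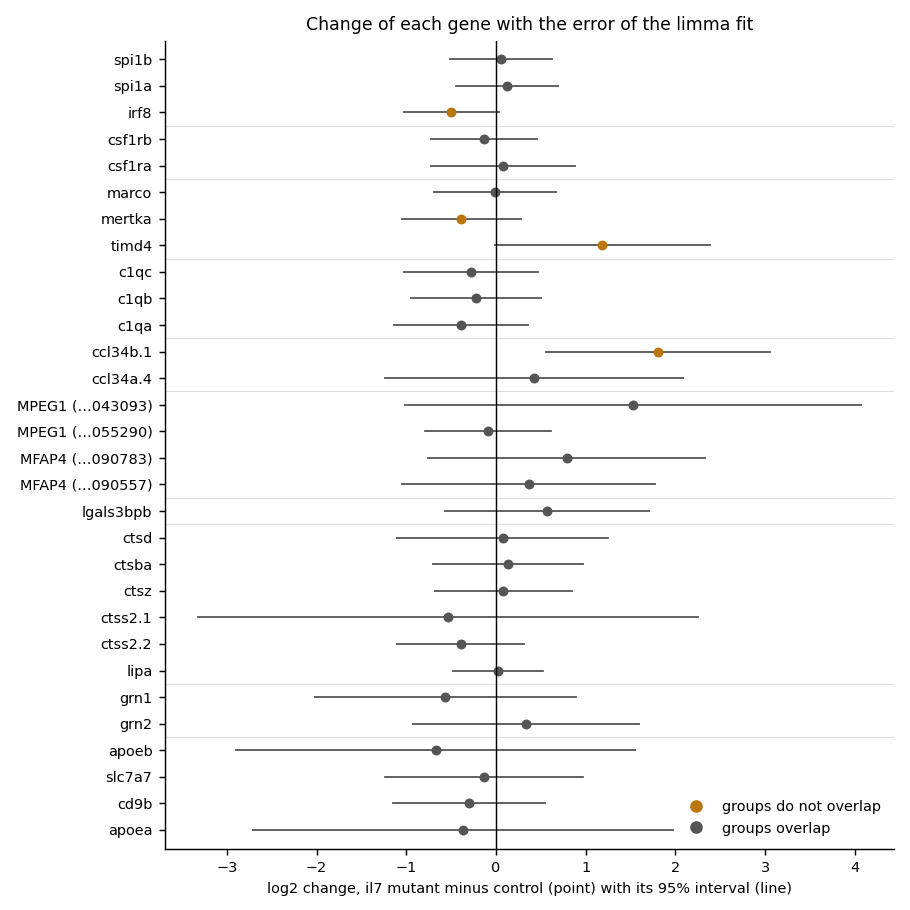
Log2 change, il7 mutant minus control (points), with its 95% interval in the limma fit (lines) for the 30 fitted features, grouped by role; orange points mark genes whose groups do not overlap. The line of ccl34b.1 is the only one of the 30 that does not reach 0, and the lines of ctss2.1, MPEG1 ENSDARG00000043093, apoea and apoeb are the longest.

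Among the lineage regulators, the spi1 genes had like levels in both groups while irf8 was lower in each mutant library. The gene spi1b, the better known of the zebrafish PU.1 genes, had 3711, 3727 and 3516 normalized counts in il7 mutant libraries and 3164, 4713 and 2902 in control libraries. Its log2 change was 0.06 with a 95% interval from −0.51 to 0.62. The mutant values sat close together inside the wider range of the controls. Its duplicate spi1a had 2064, 3048 and 2226 in il7 mutant libraries and 1939, 2631 and 2131 in control libraries, a change of 0.12 (interval −0.45 to 0.69). The sign of both turned when control 1 and il7 mutant 2 were left out, at −0.03 for spi1b and −0.14 for spi1a.

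The gene irf8, which in zebrafish favours the macrophage over the neutrophil fate, had 967, 1022 and 856 normalized counts in il7 mutant libraries and 1197, 1636 and 1213 in control libraries. The highest mutant value lay below the lowest control value. Its mean was 948 ± 84.5 in mutants and 1349 ± 249 in controls (SD, n = 3 each), a log2 change of −0.50 (SE 0.22), or 0.709 of the control level with an interval from 0.492 to 1.02. It did not pass the limma test (unadjusted p = 0.0615, adjusted p = 1.00), and in the authors' deposited table its log2 fold change was −0.51 with an adjusted p of 1.00. The change stayed between −0.57 and −0.35 when single libraries were left out, and was −0.63 without control 1 and il7 mutant 2. The gene is also used by dendritic and B cells. Of the B cell markers, 7 of 8 fitted genes had a negative log2 change, against 11252 of all 20782 fitted genes. Their median was −0.29 with all libraries but 0.02 without control 1 and il7 mutant 2. Their summed normalized counts were 4507 to 8597 in mutants and 5798 to 8612 in controls. Of the dendritic cell markers, 4 of 7 were negative, with a median of −0.10 both with and without that pair. Their sums were 22665 to 40645 in mutants and 37179 to 47260 in controls. Groups lay apart for 0 of 8 B cell and 0 of 7 dendritic cell markers (background 3.51% of all genes higher and 4.44% lower). None of the markers in these lists was at 0 in all libraries, and their part in the irf8 values was not tested.

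The receptors for Csf1, the growth factor of macrophages, overlapped between the groups. The paralogue csf1rb had 9144, 13802 and 9543 normalized counts in il7 mutant libraries and 9739, 13338 and 12251 in control libraries. Its log2 change of −0.13 had an interval from −0.72 to 0.46, and the range over the 6 libraries was 1.51-fold. Without control 1 and il7 mutant 2 the change was −0.45 (SE 0.18), which did not pass the limma test. The paralogue csf1ra had 415, 574 and 584 in il7 mutant libraries and 488, 706 and 346 in control libraries, a change of 0.07 (interval −0.73 to 0.88). The mutant values of csf1ra fell inside the control range. Within a library the ratio of csf1rb to csf1ra reads lay between 16.3 in il7 mutant 3 and 35.4 in control 3, with overlapping groups.

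Of the 3 surface receptors found, marco was level, timd4 was higher and mertka lower in every mutant library. The scavenger receptor gene marco had 8419, 7082 and 5514 normalized counts in il7 mutant libraries and 6573, 9490 and 5442 in control libraries, a log2 change of −0.02 (interval −0.70 to 0.66). The groups overlapped fully. The gene timd4, whose product binds phosphatidylserine on dying cells, had 29.5, 26.8 and 29.0 in il7 mutant libraries and 13.4, 8.08 and 15.5 in control libraries. These rest on 25 to 29 reads in mutant and 8 to 17 reads in control libraries. The log2 change was 1.18 (SE 0.50), a 2.27-fold difference with an interval from 0.989 to 5.22. It did not pass the limma test (adjusted p = 1.00). It was 1.30 without control 1 and il7 mutant 2. For timd4 the authors' deposited table lists a shrunken log2 change of 0.87, with 0.898 as its adjusted p.

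The receptor kinase gene mertka, whose mammalian counterpart triggers the uptake of apoptotic cells, had 191, 232 and 233 normalized counts in il7 mutant libraries and 247, 352 and 267 in control libraries. The gap between the groups was small beside the spread of the controls. Its log2 change was −0.39 (SE 0.28), with an interval from −1.05 to 0.27 and an unadjusted limma p of 0.204 (adjusted p = 1.00). The change lay between −0.49 without control 1 and −0.24 without control 2, which held the highest value, and was −0.54 without control 1 and il7 mutant 2.

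The 3 chains of C1q, the recognition subunit of classical complement, shared their highest and their lowest library and did not separate the groups. The gene c1qa had 1782, 1859 and 1075 normalized counts in il7 mutant libraries and 1800.0, 2695 and 1655 in control libraries. For c1qb the values were 2419, 2461 and 1526 in il7 mutant libraries and 1975, 3316 and 2198 in control libraries. For c1qc they were 2982, 2829 and 1773 in il7 mutant libraries and 2195, 3882 and 3141 in control libraries. All 3 chains were highest in control 2 and lowest in il7 mutant 3. Their log2 changes were −0.39 (SE 0.31), −0.22 (SE 0.30) and −0.28 (SE 0.31) for c1qa, c1qb and c1qc. Without control 1 and il7 mutant 2 they were −0.61, −0.49 and −0.60, and 0 of the 3 passed the limma test there. The ratio of c1qb to c1qa reads varied 1.29-fold over the 6 libraries and was at most 1.42. That of c1qc to c1qa varied 1.56-fold, from 1.22 in control 1 to 1.90 in control 3. The 3 genes follow one another directly in the RefSeq annotation of the GRCz12tu assembly, in the order c1qb, c1qc, c1qa.

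Of the 2 chemokine genes, ccl34b.1 showed the highest log2 change of the 30 features, 1.81. It had 370.2, 174 and 146 normalized counts in il7 mutant libraries and 36.2, 68.7 and 84.3 in control libraries. Every mutant value lay above every control value, and il7 mutant 1 stood apart from the other mutants. The means were 229.8 ± 122 in mutants and 63.1 ± 24.5 in controls (SD, n = 3 each). The log2 change had an SE of 0.52 and corresponded to a 3.50-fold difference with an interval from 1.48 to 8.31. Its unadjusted limma p was 0.0115, and the adjusted p was 1.00. The authors' deposited table lists it at 1.87 on the log2 scale, or 1.35 after shrinkage, with 0.118 as its adjusted p. The change was 1.40 without il7 mutant 1 and 1.60 without control 1 and il7 mutant 2. Chemokine genes of this family have similar copies, so how the authors' counting split their reads is uncertain. The related ccl34a.4 had 37.7, 34.7 and 13.99 in il7 mutant libraries and 30.7, 26.3 and 8.88 in control libraries, with overlapping groups and a change of 0.43 (SE 0.69).

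**Figure D3:**
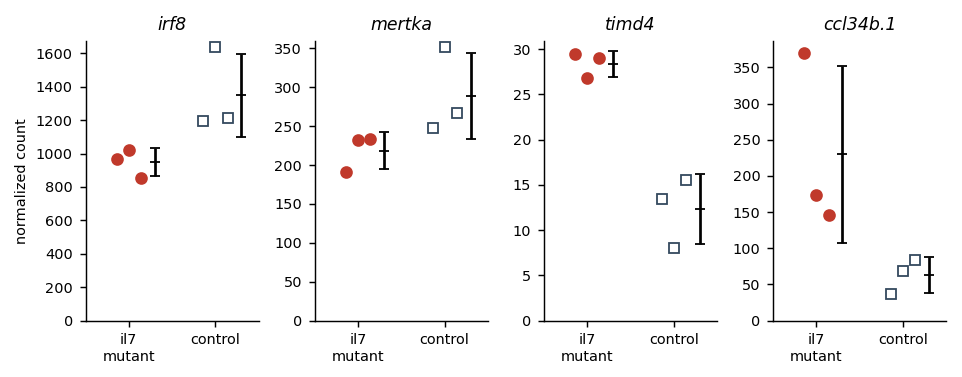
Normalized count of irf8, mertka, timd4 and ccl34b.1 in each library (points; il7 mutant left, control right), with the mean and SD of each group (n = 3) beside the points. The mutant values lie below all control values for irf8 and mertka and above them for timd4 and ccl34b.1, and none of the 4 genes passed the adjusted limma test.

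In several lists of markers of other tissues and cell types most log2 changes had the same sign, though the lists differed in which sign. All 5 fitted muscle markers and 6 of 8 kidney tubule markers had a positive log2 change. The kidney tubule median was only 0.04, and −0.15 without control 1 and il7 mutant 2. The muscle median was 1.38, and 1.07 without that pair. Of the T cell markers 6 of 7 were negative, and of the oocyte markers 9 of 10. Counts of oocyte markers came almost wholly from control 1 and il7 mutant 2. Markers of 1 tissue can move together in a library, so their signs are not separate results. All 9 liver markers and all 11 endothelial and stromal markers that were fitted had a positive log2 change, against 9530 of all 20782 fitted genes. The liver median was 3.04, and 2.51 without control 1 and il7 mutant 2. For endothelial and stromal markers the median was 0.42, and 0.24 without that pair. At an unadjusted p under 0.05, 3 of 9 liver and 3 of 11 endothelial and stromal markers were higher (background 1.36% of all genes). Groups lay apart, higher in the mutants, for 1 of 9 liver markers and 2 of 11 endothelial and stromal markers (background 3.51%). The same held for 1 of 8 kidney tubule, 1 of 5 thrombocyte and 1 of 9 neutrophil markers. For 1 of 7 T cell markers the groups lay apart with the mutants lower (background 4.44%). Summed liver markers stood at 6527 to 29524 normalized counts in mutants and 984 to 16905 in controls, and summed endothelial and stromal markers at 102339 to 156207 in mutants and 67586 to 110823 in controls. All 8 fitted erythroid markers were positive as well, with sums of 193637 to 529128 in mutants and 77418 to 382777 in controls. Each of these sums overlapped between the groups, and 0 of these genes passed the limma test, while the authors' deposited table calls 1 of the liver markers. None of the liver and none of the endothelial and stromal markers was at 0 in all libraries. Their part in the values of timd4 and ccl34b.1 was not tested.

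The pore-forming protein perforin-2, which kills bacteria inside phagosomes, is encoded by the MPEG1 features, and these behaved differently from each other. Feature ENSDARG00000043093 had 10263, 43181 and 4558 normalized counts in il7 mutant libraries and 3087, 15275 and 1784 in control libraries. This range of 24.2-fold was the widest among the 30 features, and the groups overlapped. Its log2 change was 1.53 (SE 1.06), with an interval from −1.02 to 4.07, and it dropped to 0.64 when il7 mutant 2 was left out. Leaving out control 2 gave 2.43, and leaving out the oocyte-rich pair gave 0.39. Feature ENSDARG00000055290 had 1323, 1580 and 921 in il7 mutant libraries and 1460, 1565 and 1021 in control libraries, a range of 1.71-fold and a change of −0.09 (SE 0.29). The ratio of the first to the second feature varied 15.6-fold, from 1.75 in control 3 to 27.3 in il7 mutant 2.

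The lysozyme gene lyz, a neutrophil marker, had its highest values in the same libraries as ENSDARG00000043093. It had 130704, 180516 and 94734 normalized counts in il7 mutant libraries and 91519, 136722 and 92989 in control libraries. Both were highest in il7 mutant 2, then control 2, then il7 mutant 1, then il7 mutant 3. Between the groups, the whole list of neutrophil markers did not lean to one side. Of its 9 fitted genes 4 had a positive and 5 a negative log2 change, with a median of −0.05, and 0 were at 0 in all libraries. Their summed normalized counts, lyz included, were 229503, 344754 and 185042 in il7 mutant libraries and 166867, 264157 and 175076 in control libraries. From the highest down, these sums began with the same libraries in the same order. However, lyz made up most of each sum, so the sums do not add to its order. Over the libraries lyz varied 1.97-fold, against 24.2-fold for ENSDARG00000043093. The part of these genes in the MPEG1 values was not tested. Of the MFAP4 features, named for a matrix protein whose gene marks macrophages in zebrafish, ENSDARG00000090783 had 240.5, 546 and 134 in il7 mutant libraries and 145, 271 and 86.5 in control libraries. It too was highest in il7 mutant 2, then control 2, then il7 mutant 1. Its change of 0.79 (SE 0.64) was 0.25 without il7 mutant 2 and 0.23 without control 1 and il7 mutant 2. The MFAP4 copies share a name and may share reads, so their split is uncertain.

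The lysosomal enzymes, which included ctsd and ctsba, the members with the most reads, showed no group difference beyond their spread. The aspartyl protease gene ctsd had 36917, 15262 and 30400 normalized counts in il7 mutant libraries and 13845, 27913 and 37954 in control libraries, a log2 change of 0.07 (SE 0.49). The lowest value of each group was in the oocyte-rich library. The carboxypeptidase gene ctsz had the same pattern, with 13831, 7540 and 9437 in il7 mutant libraries and 6932, 12097 and 9886 in control libraries, and a change of 0.08 (SE 0.32). Summed kidney tubule markers were also lowest in the oocyte-rich library of each group. They stood at 319487, 195375 and 364036 in il7 mutant libraries and 124207, 306263 and 409304 in control libraries. Summed erythroid markers had their lowest values in the same libraries. The part of such cells in the values of ctsd and ctsz was not tested. The acid lipase gene lipa, which frees cholesterol from engulfed lipoproteins, was the steadiest feature, at 1561, 1732 and 1584 in il7 mutant libraries and 1360, 1919 and 1564 in control libraries. Its change of 0.02 had an interval from −0.48 to 0.52.

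Cathepsin genes showed opposite patterns across the oocyte-rich libraries. The cysteine protease gene ctsba had 16901, 23859 and 13485 normalized counts in il7 mutant libraries and 24227, 12112 and 14016 in control libraries. The gene ctss2.1, of the cathepsin S family that processes antigens, had 1978, 12644 and 1568 in il7 mutant libraries and 22345, 2777 and 1907 in control libraries. Both were highest in the oocyte-rich library of each group. The change of ctss2.1 was −0.53 (SE 1.16) with all libraries, 0.56 without control 1, −1.48 without il7 mutant 2 and −0.39 (SE 0.27) without both. Its tandem neighbour ctss2.2 had 2647, 2197 and 2968 in il7 mutant libraries and 2436, 4820 and 3334 in control libraries, with low values in the same pair. The ratio of ctss2.1 to ctss2.2 reads was 5.75 in il7 mutant 2 and 9.17 in control 1, against 0.528 to 0.747 in the other libraries.

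Across the 30 features, the oocyte-rich pair held the highest values of all 6 libraries for 2 (6.67%), ctsba and ctss2.1, against 23.9% of all fitted genes. The pair held the lowest values for 5 (16.7%), ctsd, ctsz, ctss2.2, slc7a7 and apoea, against 19.5% of all fitted genes. This is a description of the order of libraries, and no test was made of it. Of the 10 oocyte markers none was at 0 in all libraries, and their summed normalized counts were 207 to 120562 in mutants and 235 to 240151 in controls.

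The granulin genes grn1 and grn2, which encode short relatives of the secreted growth factor and lysosomal protein progranulin, are direct neighbours and did not keep a fixed ratio. For grn1 the values were 3811, 14633 and 5374 normalized counts in il7 mutant libraries and 7921, 18513 and 6614 in control libraries. For grn2 they were 891, 450.2 and 376 in il7 mutant libraries and 382, 788 and 251 in control libraries. Their log2 changes were −0.56 (SE 0.60) and 0.33 (SE 0.52). The ratio of grn1 to grn2 reads was 4.28 in il7 mutant 1 and between 14.3 and 32.5 in the other 5 libraries. Without control 1 and il7 mutant 2 the change of grn1 was −1.29, and without control 2 it was −0.11.

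**Figure D4:**
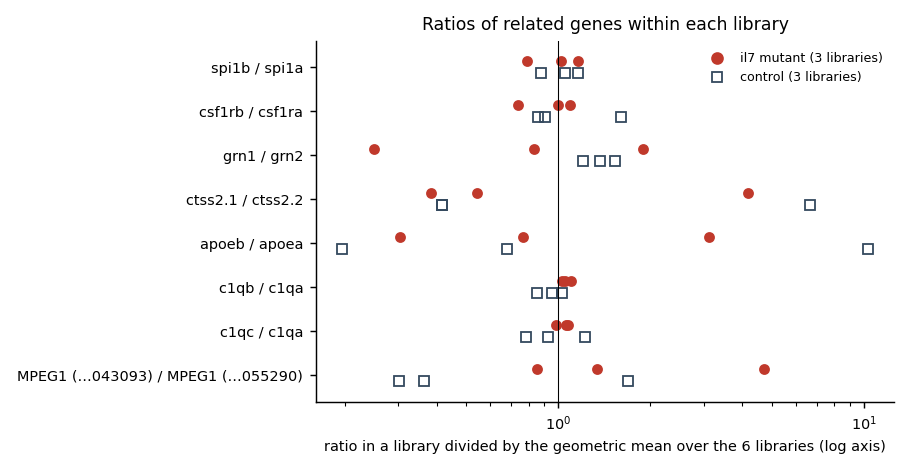
Ratio of reads of related genes within each library, divided by its geometric mean over the 6 libraries (log axis); filled circles are il7 mutant and open squares control libraries. The ratios of the C1q chains and the spi1 pair vary least, by at most 1.56-fold. For the spi1 pair this is 1.47-fold, near the ranges of spi1b (1.62-fold) and spi1a (1.57-fold) themselves. The ratios of apoeb to apoea, of ctss2.1 to ctss2.2 and of the MPEG1 features spread over more than 10-fold.

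The apolipoprotein E genes, which carry lipid and mark macrophages that clear it, varied widely between libraries of one group. The gene apoeb had 7193, 954 and 1818 normalized counts in il7 mutant libraries and 8538, 1356 and 4378 in control libraries, a log2 change of −0.67 (SE 0.93). The gene apoea had 150, 80.3 and 387 in il7 mutant libraries and 53.6, 447 and 416 in control libraries, a change of −0.37 (SE 0.97). The ratio of apoeb to apoea reads ran from 3.04 in control 2 to 159 in control 1. Leaving out control 1 and il7 mutant 2 turned the sign of apoeb, to 0.57, and gave −0.84 for apoea.

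The remaining genes overlapped between the groups. The amino acid transporter gene slc7a7, needed for microglia in zebrafish, had 5617, 1986 and 3842 normalized counts in il7 mutant libraries and 2437, 4865 and 4778 in control libraries, a log2 change of −0.13 (SE 0.46). The tetraspanin gene cd9b had a log2 change of −0.30 (SE 0.35), with its highest value, 3874, in control 1, and of −0.13 without control 1 and il7 mutant 2. The gene lgals3bpb, for a secreted galectin-binding glycoprotein, had 3100.4, 4079 and 1644 in il7 mutant libraries and 1161, 3073 and 1783 in control libraries. Its change of 0.57 (SE 0.47) became −0.05 without control 1 and il7 mutant 2.

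By the median of its members, the set was highest in control 2, whereas by its share of all counts it was highest in il7 mutant 2. As a median over the 30 features, the deviation from each gene's mean was 0.08, 0.10 and −0.28 log2 units in il7 mutant libraries. In control libraries it was −0.22, 0.43 and −0.18. The median over all fitted genes stayed between −0.0165 and −0.00076. Scaling by size factors holds that median near 0 in every library, so it does not tell how far another set of 30 genes would move. Control 2 was the highest library for 13 of 30 features and il7 mutant 3 for 0 of 30. How often each library was highest over all fitted genes was not counted, so these counts cannot be called particular to the set. The features together made up 0.346%, 0.478% and 0.274% of all normalized counts in il7 mutant libraries and 0.357%, 0.382% and 0.288% in control libraries. These shares overlapped between the groups. Without the 4 largest features the order of the libraries was another one, with 0.208% in il7 mutant 2, 0.217% in control 1 and 0.2096% in control 2. The largest remaining feature in control 1 was ctss2.1, at 22345 normalized counts, a gene highest in the oocyte-rich pair.

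**Figure D5:**
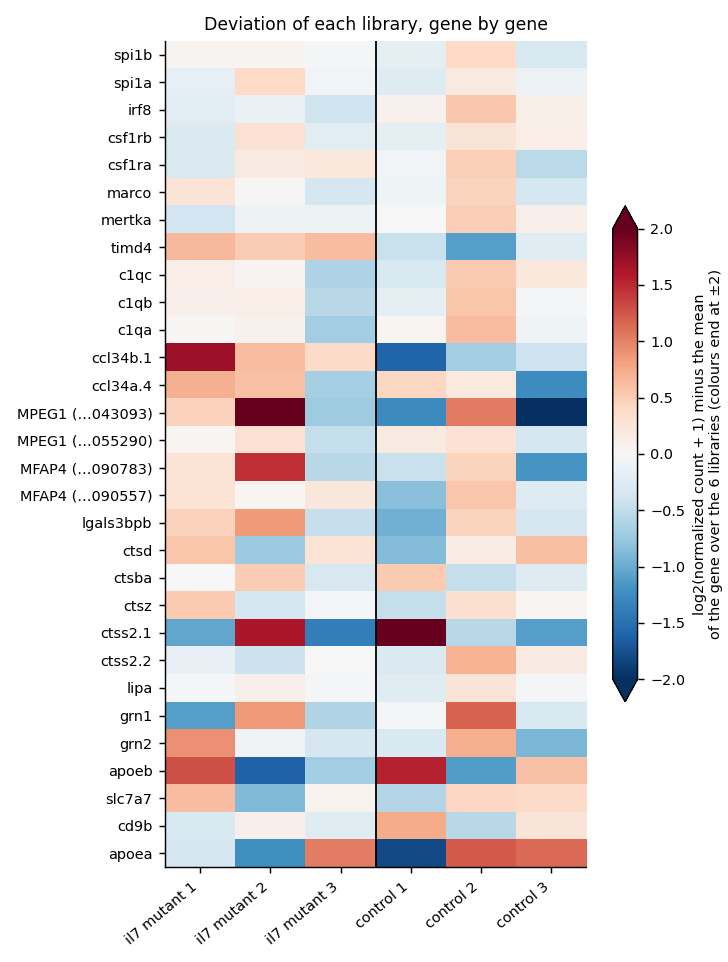
Deviation of log2(normalized count + 1) from the mean of each gene over the 6 libraries, for the 30 fitted features (rows) in il7 mutant libraries (left) and control libraries (right of the line); red is above and blue below the mean, and colours end at 2 log2 units. Control 2 is above the mean in most rows, and the rows of MPEG1 ENSDARG00000043093, ctss2.1, ccl34b.1, apoeb and apoea show the widest swings.

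Other genes of these pathways were also spread about 0. Of 49 further macrophage symbols, 46 were matched and 42 features were fitted, with 22 positive, 20 negative and a median log2 change of 0.03. Of the 42, 0 passed the adjustment, and groups did not overlap for 1 higher and 2 lower (background 3.51% and 4.44% of all genes). At an unadjusted p under 0.05, 0 were higher (background 1.36%) and 1 was lower (background 2.12%). That gene was arg2, an arginase, at 3228, 2196 and 1526 normalized counts in il7 mutant libraries and 3194, 5790 and 13670 in control libraries (log2 change −1.52, SE 0.56, adjusted p = 1.00). Its change was −0.96 without control 3 and −2.01 without control 1. Next by p were the transcription factor gene maf, at 67.2, 13.9 and 19.98 in mutants and 9.45, 9.09 and 2.22 in controls, and the cytokine gene il1b, at 24.8, 12.9 and 23.98 in mutants and 74.05, 23.2 and 103 in controls. Their log2 changes were 1.99 (SE 0.84) and −1.47 (SE 0.68), and neither passed (adjusted p = 1.00). The maf values rest on 12, 9 and 2 reads in controls, whose mean of 6.92 lay under the filter, so the gene was fitted only through its mutant values. Its change was 1.34 without il7 mutant 1 and 2.73 without control 1 and il7 mutant 2. For il1b it was −0.99 without that pair.

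Of 51 further lysosome symbols, 39 were matched and 38 features were fitted, with 22 positive, 16 negative and a median log2 change of 0.06. Of the 38, 0 passed the adjustment, and groups did not overlap for 1 higher and 2 lower (background 3.51% and 4.44% of all genes). Here 0 were higher (background 1.36%) and 1 was lower (background 2.12%) at an unadjusted p under 0.05. The lower gene was grna, which encodes a full-length progranulin, at 2022, 1977 and 1772 normalized counts in il7 mutant libraries and 2208, 3475 and 4608 in control libraries. The groups did not overlap, and the log2 change was −0.77 (SE 0.30, adjusted p = 1.00), or −1.08 without control 1 and il7 mutant 2. The acid glucosidase gene gaa was higher in each mutant library, at 279, 245 and 285 against 158, 167 and 209 in controls, with a change of 0.61 (SE 0.27, adjusted p = 1.00). The cathepsin L gene ctsl.1 had 35.4, 616 and 133 in mutants and 45.7, 51.5 and 36.6 in controls, a change of 1.67 (SE 0.99) that was 0.63 without il7 mutant 2, its highest library, and 0.65 without control 1 and il7 mutant 2.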

How the data were processed

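Per the labels' protocols, the libraries were stranded and made from total RNA depleted of ribosomal RNA. As tools of the authors, the submitters' processing notes list DESeq2 1.14.1, featureCounts 1.5.2, STAR 2.5.3a and bcl2fastq 2.17.1.14, with GRCz10 as the build; no source used here gives the counting settings, strand included. As deposited, each signal value is a gene's count scaled by a size factor of its library. The deposited table of the authors' comparison holds log2 fold changes (unshrunken unless stated), p-values and a Wald score, which was not used. Values are whole multiples of the smallest value of their column (within 1e-06), which gave the reads.

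Symbols were matched without case in a table of gene names (26433 features named). For spi1b, ctsba, grn1, grn2, lgals3bpb and mpeg1.1 another name in RefSeq (SPI1, CTSB, grna.1, grna.2, lgals3bp.1, MPEG1) was used. The members and lists were chosen with earlier results of these data known. Sample titles gave the groups. limma 3.58.1 (R 4.3.3, variance trend) was fitted to genes with a mean of at least 10, on log2(normalized count + 1), a scale that understates changes of low genes. The steps were checked on drawn data. Those data had the same setting of spread for every gene and no oocyte-rich libraries. The check therefore does not tell how large a change could be found in the real libraries. Values per library are given for members that the naming rule took: groups apart, a small p, regulators, receptors, C1q chains and paralogue pairs. Its part on levels per length was not used here, since no transcript lengths were at hand, nor were sequences. Members added for their role were chosen after their values were seen. Intervals are not adjusted. No coordinates are given.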

Additional observations from a re-analysis of the deposited data

How the results depend on the processing

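limma called 0 genes and 0 members in the fit with all libraries and under all 17 alternatives, upper quartile scaling included, which was chosen after seeing the data, and also at an adjusted p under 0.10. At an unadjusted p under 0.05 there were 723 genes, and the authors' deposited table calls 112 genes. The change of il7 was −2.55 with all libraries and lay between −2.89 and −1.93 when single libraries were left out. The planned count models on reads and the trimmed-mean scaling of reads were not run. Deviations of same-numbered libraries correlated at −0.51, −0.40 and 0.51 for numbers 1, 2 and 3. Libraries of unlike number correlated between −0.58, for il7 mutant 2 with control 3, and 0.73, for il7 mutant 2 with control 1. The numbers were therefore not taken as pairs. A replicate block called 0 genes. With the 28 features matched by their own symbol, 23 were fitted, with 10 positive and a median of −0.13, against 15 of 30 and 0.00.

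The sign held in all alternatives that fitted them for 13 of 30 members, irf8, mertka, timd4 and ccl34b.1 among them, and turned in at least 1 for 17, none of which passed the test in any. With array quality weights the change turned to 0.74 for apoeb, −0.085 for spi1b, −0.11 for spi1a, −0.13 for lipa and −0.20 for csf1ra. Without both control 1 and il7 mutant 2 it turned to 0.57 for apoeb, −0.034 for spi1b, −0.052 for lgals3bpb, −0.14 for spi1a, −0.14 for lipa and −0.0059 for csf1ra. For marco it turned to 0.017 with quantile normalization and 0.043 with upper quartile scaling. Leaving out single libraries, the change ranged from −0.34 to 0.45 for ctsd, −0.086 to 0.43 for ctsba, −0.16 to 0.28 for ctsz, −1.48 to 0.56 for ctss2.1, −0.19 to 0.21 for marco, −0.48 to 0.27 for slc7a7, −0.081 to 0.27 for spi1b, −0.047 to 0.25 for spi1a, −0.37 to 0.0044 for c1qb, −0.093 to 0.16 for lipa, −0.28 to 0.12 for MPEG1 ENSDARG00000055290, −0.044 to 0.78 for grn2, −0.18 to 0.33 for csf1ra, −1.36 to 0.16 for apoea and −0.099 to 0.86 for ccl34a.4. The causes were not tested. Depth limits timd4, ccl34a.4 and MFAP4 ENSDARG00000090557, which had at most 39 reads in a library.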
